A study of Mus musculus with 6 samples.

Results

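The immunity-related GTPases (IRGs) are a family of interferon-induced proteins. Here 7 of their genes were followed in the RNA of cells labelled as blood monocytes: Irgm1, Irgm2, Igtp, Iigp1, Tgtp1, Tgtp2 and Ifi47. The genes were taken by symbol, and all 7 were found among the 56832 genes in the files. Polyadenylated RNA was sequenced in 6 libraries of mouse cells labelled as peripheral blood monocytes. In the thrombocytopenic group (3 libraries) the mice were PF4cre-iDTR and received diphtheria toxin. In this genotype Cre recombinase, driven by the promoter of the platelet factor 4 gene Pf4, switches on a receptor for the toxin in megakaryocytes and so removes platelets. The control group (3 libraries) was wild type, and diphtheria toxin is listed as its treatment too, so platelet state and genotype cannot be told apart. The labels give neither age nor strain, and activity of the Pf4 promoter in the sequenced cells themselves was not tested. Nor do they tie each library to its own animal, and the p-values therefore reflect the variation among the 6 libraries, possibly technical. Beyond counting noise, the variation within groups was small, with a common coefficient of variation of 2.68% in edgeR. The p-values and the share of genes called rest on it.

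IRG proteins are made by mouse cells that have met interferon, above all interferon gamma, and defend the cell against parasites and bacteria that live inside a vacuole. The effector members, here Iigp1 (also called Irga6), Tgtp1 and Tgtp2 (Irgb6) and Ifi47 (Irgd), bind GTP, assemble on the membrane of the vacuole around a parasite such as Toxoplasma gondii and break it. The regulatory members, Irgm1, Irgm2 and Igtp (Irgm3), sit on the cell's own membranes and hold the effectors in their inactive state, so that these membranes are spared. Irgm1 is also known for its part in resistance to mycobacteria and in autophagy.

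Transcription of the family is known to be driven from promoters with an interferon-stimulated response element (ISRE), bound by IRF factors, and a gamma-activated sequence (GAS). RefSeq promoter sequences of GRCm38.p6 were at hand for 6 of the 7 members, all but Iigp1, and the 250 bases before each gene's start were searched on both strands for the ISRE core, which is GAAA, any 2 bases and GAAA, and the GAS letters TTCNNNGAA. The stretches around the ISRE core are shown because the same pair of motifs recurs in both regulatory and effector members. Capitals mark the matches, which do not overlap each other except for the double ISRE match of Irgm1, and each stretch is read 5′ to 3′ on the strand of its gene.
Irgm1 (chr11:48871425-48871472, minus strand): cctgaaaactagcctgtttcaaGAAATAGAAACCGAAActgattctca
Irgm2 (chr11:58214885-58214932, plus strand): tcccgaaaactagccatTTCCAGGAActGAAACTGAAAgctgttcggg
Igtp (chr11:58199494-58199541, plus strand): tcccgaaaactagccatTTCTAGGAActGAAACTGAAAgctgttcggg
Tgtp1 (chr11:48992304-48992351, minus strand): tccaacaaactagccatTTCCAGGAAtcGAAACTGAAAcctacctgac
Tgtp2 (chr11:49064263-49064310, minus strand): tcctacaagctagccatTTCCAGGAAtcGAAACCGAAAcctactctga

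An ISRE core lay in 5 of the 6 promoters, and a GAS stood directly before it in 4 of them (Irgm2, Igtp, Tgtp1 and Tgtp2), with 2 bases between the motifs each time. Of 32851 promoter windows of all genes, 2.98% held the ISRE core, 7.02% held the GAS letters, and 30 (0.0913%) held both within 10 bases of each other. These 30 windows belonged to 29 genes, of which 6 were IRG genes: the 4 named here and the IRG genes Gm12185 and Gm12250. The shown stretches of Irgm2 and Igtp differed at 1 of 48 bases, and those of Tgtp1 and Tgtp2 at 8. The window of Ifi47 held neither motif, which says only that these letters are not in these 250 bases. A match describes the sequence and does not show that a factor was bound in these cells.

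In the thrombocytopenic libraries 6 of the 7 IRG genes were lower and none was higher, by edgeR's quasi-likelihood test at a Benjamini-Hochberg adjusted p under 0.05 over all 12488 tested genes. The same test called 45.1% of all tested genes, 22.7% lower and 22.4% higher. Iigp1 fell by 44.1% and was the 1 member called lower by at least 1.5-fold, as were 6.83% of all tested genes. Irgm2 did not pass the test. For 5 members the 3 thrombocytopenic libraries all lay below the 3 control libraries, as they did for 26.0% of all tested genes. For none of the members did they all lie above, as for 25.2% of tested genes (51.3% in either direction). Values are CPM, the counts of a gene scaled to a common library size with edgeR's TMM factors, and means are given ± SD over 3 libraries. The CPM of cell type markers are scaled by library totals alone.

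**Figure D1:**
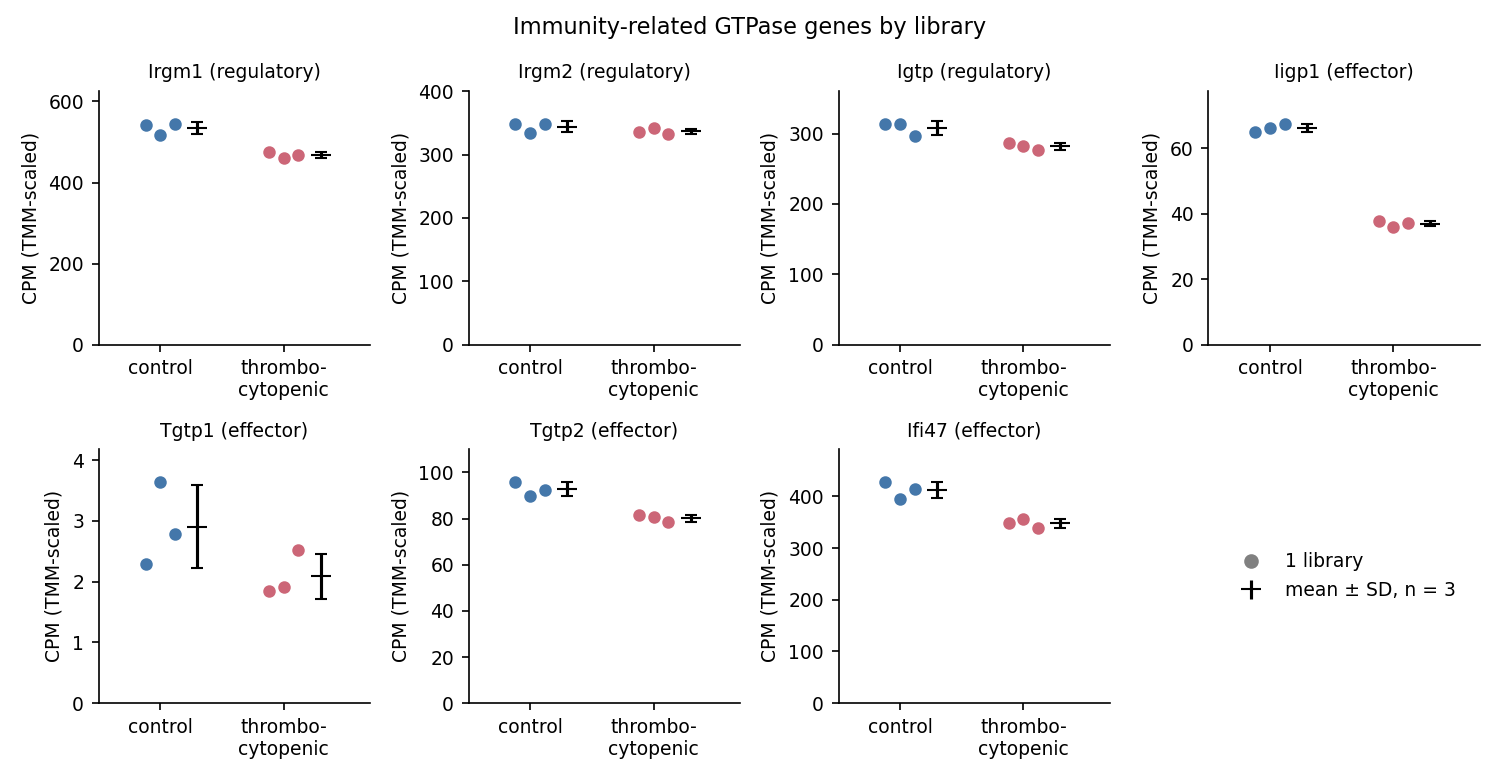
TMM-scaled CPM (y axis, from 0) of the 7 IRG genes in the 3 control and 3 thrombocytopenic libraries (points), with the mean ± SD of each group (black). Iigp1 sits at 36.1 to 37.7 CPM in the thrombocytopenic and at 64.9 to 67.5 CPM in the control libraries, while the Irgm2 libraries of both groups overlap.

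Among the effectors, Iigp1, which coats and disrupts the parasite vacuole, had 37.7, 36.1 and 37.2 CPM in thrombocytopenic replicates 1 to 3 and 64.9, 66.1 and 67.5 CPM in control replicates 1 to 3. The groups were far apart, and the coefficient of variation within each was 2.26% and 1.96%. The means were 37.0 ± 0.835 and 66.2 ± 1.29 CPM, a log2 fold change of -0.84 (SE 0.041; edgeR adjusted p = 2.06e-24), or 1.79-fold lower. Of all tested genes, 4.08% had a lower log2 fold change than Iigp1.

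Ifi47, another effector that loads onto vacuoles, had 348, 356 and 338 CPM in the thrombocytopenic and 427, 395 and 414 CPM in the control libraries. The groups did not overlap. The means were 348 ± 9.16 and 412 ± 16.1 CPM, so Ifi47 fell by 15.6% (log2 fold change -0.25, SE 0.028; edgeR adjusted p = 1.17e-10).

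Tgtp2 had 81.4, 80.5 and 78.4 CPM in the thrombocytopenic and 95.8, 89.9 and 92.5 CPM in the control libraries. All thrombocytopenic values were below all control values. Tgtp2 fell by 13.5%, with means of 80.1 ± 1.56 and 92.7 ± 2.96 CPM (log2 -0.21, SE 0.035; edgeR adjusted p = 1.23e-06).

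Its near copy Tgtp1 was counted far less often, with 69, 57 and 90 counts in the thrombocytopenic and 57, 131 and 80 counts in the control libraries. That is 1.85, 1.91 and 2.52 CPM against 2.29, 3.64 and 2.79 CPM, so the groups overlapped, and the coefficient of variation was 17.6% and 23.5%. The log2 fold change was -0.50 (SE 0.17; edgeR adjusted p = 0.0135), but the call was lost without control replicate 2 (log2 fold change -0.29, adjusted p = 0.261), without thrombocytopenic replicate 1 (-0.41, 0.0823) and without thrombocytopenic replicate 2 (-0.44, 0.0542), and with DESeq2 (adjusted p = 0.0655). Tgtp1 and Tgtp2 are uncertain because they share sequence: 73.1% of the 100-base words in the annotated Tgtp1 transcripts (GENCODE M21) also occur in another gene, nearly all of them in Tgtp2, and 76.8% of those of Tgtp2 occur elsewhere, nearly all in Tgtp1. How reads that match both were counted is not given in the sources used here. With the counts of both genes summed before the fit, the pair fell by 0.22 on the log2 scale (adjusted p = 3.44e-07).

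Among the regulators, Irgm1 had 476, 461 and 468 CPM in the thrombocytopenic and 541, 517 and 545 CPM in the control libraries, with no overlap. With means of 468 ± 7.34 and 535 ± 15.1 CPM, Irgm1 fell by 12.4% (log2 -0.19, SE 0.026; edgeR adjusted p = 1.52e-08). Igtp, the regulator of the endoplasmic reticulum and lipid droplets, had 287, 282 and 277 CPM in the thrombocytopenic and 314, 314 and 297 CPM in the control libraries. Here too the groups did not overlap, but the drop was small, from 308 ± 9.85 to 282 ± 5.18 CPM (log2 -0.13, SE 0.028; edgeR adjusted p = 0.000125).

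Irgm2, a regulator at the Golgi apparatus, had 336, 342 and 333 CPM in the thrombocytopenic and 349, 335 and 349 CPM in the control libraries. The groups overlapped. Its mean of 337 ± 4.22 against 344 ± 8.19 CPM gave a log2 fold change of -0.03 (95% interval -0.08 to 0.02; edgeR adjusted p = 0.383). The annotated exons of Irgm2 and Igtp overlap on the same strand, and 3.01% of the 100-base words of Irgm2 and 5.16% of those of Igtp occur in the other gene.

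**Figure D2:**
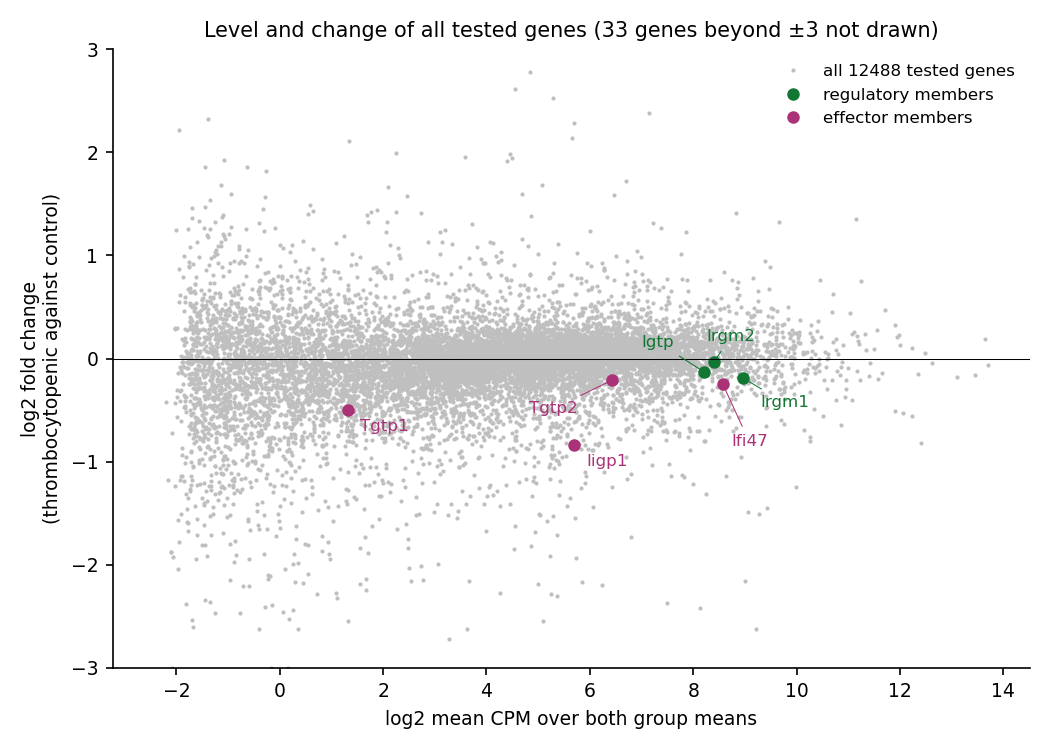
Log2 fold change of thrombocytopenic against control (y axis) against the log2 mean CPM (x axis) for all 12488 tested genes (grey; 33 genes beyond ±3 are not drawn), with the regulatory (green) and effector (purple) members named. Iigp1 lies lowest of the 7 at -0.84, and Irgm2 nearest to 0 at -0.03.

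The libraries held 24842319 to 37552029 counts. All 10 monocyte markers were above 1 CPM, and they moved in both directions, 7 higher and 3 lower. The lower ones were Cx3cr1 (11.4 against 52.3 CPM, log2 fold change -2.19), Ly6c2 (67.7 against 95.3 CPM) and Fcgr1 (513 against 651 CPM), all named after their values were seen. The sum of all 10 markers, 20892 to 21118 CPM in the thrombocytopenic and 18259 to 18640 CPM in the control libraries, was mostly Lyz2. Levels within the list differed widely. Adgre1 (3277 against 2716 CPM) and Csf1r (1477 against 1231 CPM) stood far above Ccr2 (97.5 against 83.3 CPM), Ly6c2 and Cx3cr1. These genes too were named after their values were seen. The labelled cell identity was not tested. Markers of T and NK cells, which can also express IRG genes, summed to 0.320 to 0.502 CPM against 0.845 to 1.14 CPM, led by Cd8a, and Cd3d, Cd3e, Cd3g, Ncr1 and Nkg7 had no count in any library. B cell markers summed to 13.4 to 15.1 against 11.03 to 13.0 CPM (mostly Ighm) and neutrophil markers to 9.07 to 12.7 against 12.1 to 13.5 CPM (mostly S100a8). Dendritic cell markers were at 15.6 to 18.5 against 31.4 to 35.3 CPM (mostly Ccr7; 4 of 5 tested lower, none of the 7 at 0), and erythroid markers at 0 to 0.0533 against 1.86 to 2.42 CPM (mostly Hba-a1; Alas2 had no count). Platelet markers were split too, with 2 higher and 2 lower of 4 tested. Pf4 (1092 against 926 CPM) and Ppbp (150.4 against 95.3 CPM) were higher and made up nearly all of their sum of 1219 to 1286 against 1005 to 1050 CPM. Gp9 (0 against 41 counts) and Itga2b (36 against 75 counts) were lower, so the sum does not describe the list as a whole. By an exact permutation test the groups' sums gave p = 0.1, the smallest that 3 against 3 libraries allow, except the neutrophil sum (p = 0.2). The part of these lists in the IRG values was not tested. In such bulk RNA, fewer cells of a type and less RNA per cell cannot be told apart.

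The levels of the 7 genes spanned a wide range. Levels of different genes are compared as CPM per kb of annotated exons (GENCODE M21). In control libraries Ifi47 stood highest at 167 ± 6.50 CPM per kb and Igtp next at 152 ± 4.87. Irgm2 (93.3 ± 2.22) and Irgm1 (92.0 ± 2.60) overlapped in their libraries. Tgtp2 followed at 31.5 ± 1.01, Iigp1 at 11.4 ± 0.222 and Tgtp1 at 0.907 ± 0.213 CPM per kb. The places of Tgtp1 and Tgtp2 are uncertain. Most of their sequence is shared, and if reads matching both were dropped, these levels are too low. The order was the same in the thrombocytopenic libraries, where Ifi47 (141 ± 3.70) and Igtp (139 ± 2.56) overlapped. Irgm1 (80.6 ± 1.26) there lay below Irgm2 (91.3 ± 1.14) in every library. The order of the 4 most abundant members depended on the length used. Over the principal transcript alone, a choice made after seeing the data, Irgm1 stood first in both groups, at 237 ± 6.68 CPM per kb in control libraries against 232 ± 9.07 for Ifi47, with overlapping libraries. Of 12075 tested genes with an annotated length, Ifi47 ranked 270 and Iigp1 3564 in the control libraries.

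Together the 7 genes made up 0.154% to 0.156% of all counts in the thrombocytopenic and 0.172% to 0.180% in the control libraries. Irgm1 was the largest part of this sum in both groups, at 30.1% ± 0.490 in the thrombocytopenic and 30.4% ± 0.431 in the control libraries. The share of Irgm2 was 21.7% ± 0.243 against 19.5% ± 0.166, and that of Iigp1 was 2.38% ± 0.0591 against 3.76% ± 0.123. For both of these genes the libraries of the groups did not overlap.

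The summed counts of the 4 effectors per count of the 3 regulators were 0.427, 0.438 and 0.423 in the thrombocytopenic and 0.491, 0.476 and 0.484 in the control libraries. Without Iigp1 the ratio was 0.393, 0.404 and 0.389 against 0.437, 0.419 and 0.428. In both versions the groups did not overlap. Without Iigp1 most of the effector counts were those of Ifi47, and the regulator sum still held Irgm2, which did not pass the test. A ratio without Irgm2 was not computed. As sums over chosen members these ratios are given without a test. The effectors' median log2 fold change was -0.37 and that of the regulators -0.13, against -0.00077 over all tested genes. The effectors' median leaned on the uncertain split of Tgtp1 from Tgtp2: it was -0.25 with these genes summed, and -0.28 without control replicate 2.

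Ratios of single pairs of members within a library do not depend on scaling between libraries, and none of them passed a test. As a description, 9 of the 21 pairs had ratios that did not overlap between the groups: 6 of the 12 pairs of an effector with a regulator and 3 of the 9 pairs within a class. No such share was computed over pairs of other genes. Among these 9 pairs, 8 held Iigp1 or Irgm2, and the other one was Igtp with Tgtp2. An exact permutation test (two-sided) cannot go below p = 0.1 with 3 against 3 libraries, and adjusted over the 21 pairs none was below 0.233. For Irgm1 per Irgm2 the ratio was 1.42, 1.35 and 1.40 in the thrombocytopenic and 1.55, 1.55 and 1.56 in the control libraries, a difference of -0.16 on the log2 scale between regulators. Per count of Iigp1 there were 8.91, 9.47 and 8.97 counts of Irgm2 in the thrombocytopenic and 5.37, 5.06 and 5.17 in the control libraries. In contrast, the log2 ratio of Irgm1 to Ifi47 was 0.43 ± 0.051 against 0.38 ± 0.031 and that of Irgm1 to Tgtp2 was 2.55 ± 0.029 against 2.53 ± 0.031 (mean ± SD, n = 3; exact permutation p = 0.3 and 0.5), so these differences were within the spread between libraries.

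**Figure D3:**
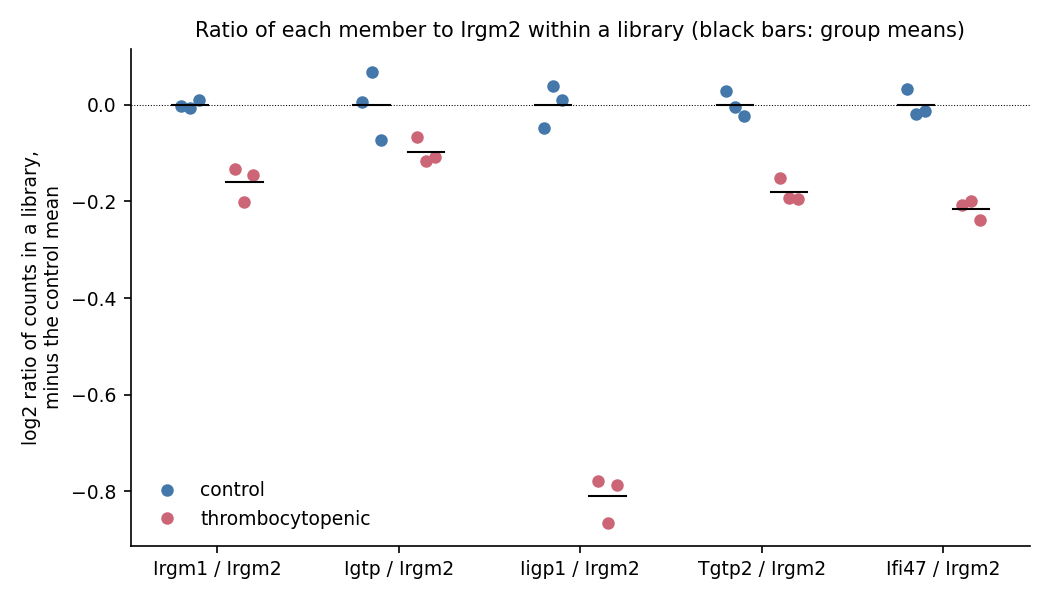
Log2 ratio of the counts of 5 members to those of Irgm2 within each library, minus the control mean of that ratio (y axis), for control (blue) and thrombocytopenic (red) libraries, with group means as black bars (Tgtp1 is left out for its low counts). The ratio of Iigp1 is lower by 0.81 on average, and only that of Igtp overlaps between the groups.

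Other genes of the family were lower as well. The list of other IRG genes held 10 symbols present in the files. Of its 8 tested genes 7 were lower and none higher, beside 22.7% and 22.4% of all tested genes. Their median log2 fold change was -0.41. Gm4951 had 7.64 ± 0.682 against 14.4 ± 0.721 CPM and fell by 0.91 on the log2 scale (SE 0.079; edgeR adjusted p = 1.55e-14). Gm5431 had 85.7 ± 3.32 against 113 ± 1.92 CPM (log2 -0.39), and Gm12250, the gene of the effector Irgb10, fell by 0.16 on that scale. Irgq, a distant relative, did not pass the test (-0.09, 95% interval -0.23 to 0.05). Irgc1, with 1 count in all libraries together, and Gm12187 were too low to test.

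The changes are next given by the place of a gene on its chromosome, a grouping made after the values were seen. RefSeq (GRCm38.p6) puts the 15 tested IRG genes into 3 clusters, with successive genes within 1 Mb, and Irgq apart. The cluster on chromosome 18 holds Iigp1 and its neighbours Gm4951 and F830016B08Rik, with log2 fold changes of -0.84, -0.91 and -1.42; the last rests on 20 counts against 47. In the chromosome 11 cluster with Irgm2, Igtp and Gm12250 the values ran from -0.16 to -0.03. In the other cluster on chromosome 11, with Irgm1, Tgtp1, Tgtp2, Ifi47 and 4 more genes, they ran from -0.58 to -0.19. All 8 of these were called lower, beside 22.7% of all tested genes. In the cluster with Iigp1 all 3 were called lower, and in that with Irgm2 2 of 3 were. Near copies within a cluster share sequence, so these values are not independent. No test was made of the difference between clusters.

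**Figure D4:**
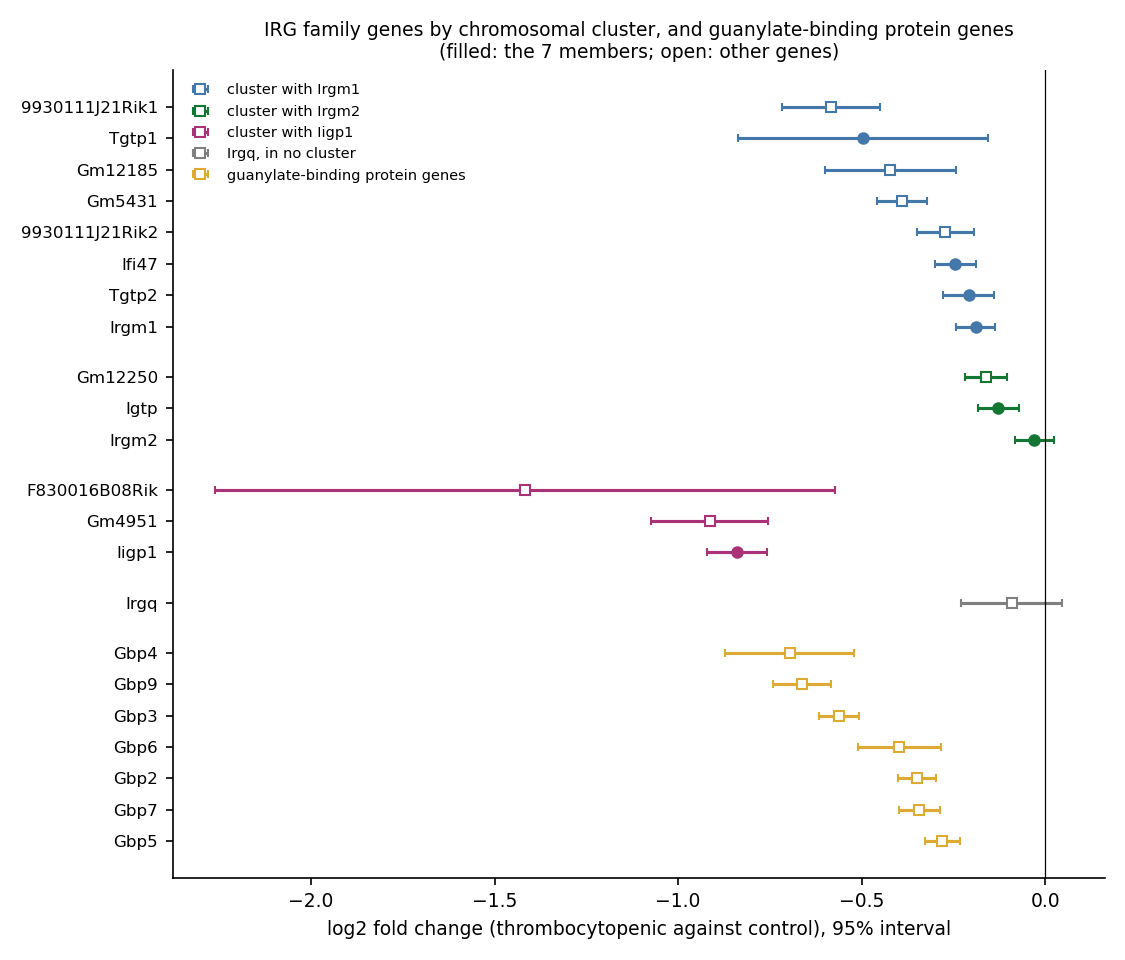
Log2 fold change with its 95% interval (x axis) for the 15 tested IRG genes, grouped by chromosomal cluster (colours), and for the 7 tested guanylate-binding protein genes; filled circles are the 7 members. The 3 genes of the cluster with Iigp1 lie at -0.84 or lower, and those of the cluster with Irgm2 lie at -0.16 or higher.

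The guanylate-binding proteins (GBPs) are larger interferon-induced GTPases that act at the same vacuoles. All 7 tested of the 11 listed GBP genes were lower, beside 22.7% of all tested genes, with a median of -0.40. Gbp3 fell by 0.56 on the log2 scale (SE 0.027), with 332 ± 10.03 against 491 ± 13.0 CPM (edgeR adjusted p = 1.23e-24). Gbp9 fell by 0.66 (SE 0.039), with 46.8 ± 1.01 against 74.1 ± 2.58 CPM. Of 5 tested genes of the Mx and very large GTPase families, 4 were lower and none was higher (median -0.16). The antiviral gene Mx1 was at -0.32 and Gvin3 at -0.22 on the log2 scale, while Gvin1 did not pass the test (-0.10).

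Genes of interferon gamma signalling moved in both directions, with 7 of 12 tested lower and 2 higher (median -0.22). Among all tested genes 22.7% were called lower and 22.4% higher. Ifng itself, the gene of interferon gamma, had 0 counts in every library, where a count of 0 allows up to 3 counts. Irf8, a factor of the family that binds the ISRE, fell from 143 ± 0.568 to 109 ± 4.35 CPM, or by 0.40 on the log2 scale (SE 0.032; edgeR adjusted p = 6.07e-16). The receptor chain gene Ifngr1 rose from 52.8 ± 0.985 to 75.2 ± 1.95 CPM (0.51, SE 0.038), and Socs3, a feedback inhibitor of cytokine receptors, rose by 0.46. Ifngr2 (-0.03), Jak1 (-0.02) and the phosphatase gene Ptpn2 (0.03) did not pass the test.

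Of 10 type I interferon signalling genes 4 were lower and 2 higher (median -0.0087). Of all tested genes 22.7% were called lower and 22.4% higher, the latter near the share in this list. Irf7 was at -0.33 and Isg15 at -0.23 on the log2 scale. Ifnb1, the gene of interferon beta, was higher at 4.04 ± 0.872 against 2.63 ± 0.224 CPM, a log2 difference of 0.63 (SE 0.15; edgeR adjusted p = 0.000349). Tyk2 was higher by 0.08, a call lost without control replicate 1 (adjusted p = 0.0912), control replicate 3 (0.114) or thrombocytopenic replicate 3 (0.097) and with upper quartile scaling (0.0968). The receptor genes Ifnar1 (0.02) and Ifnar2 (-0.04) and the factors Irf9 (0.02) and Irf3 (0.08) did not pass the test, and Ifnar1 and Irf9 changed sign with upper quartile scaling (-0.0027 and -0.0055).

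The list of LC3 conjugation genes, whose products guide IRG proteins to the vacuole, also held genes of vacuole targeting and autophagy. Of its 15 tested genes 5 were lower and 2 higher (median 0.0048), a share near the 45.1% called among all tested genes. Sqstm1, an autophagy receptor gene, was at -0.17 and Traf6, a ubiquitin ligase gene, at -0.14 on the log2 scale. Neither belongs to the conjugation machinery itself, but the other lower calls were LC3 and conjugation genes. These were Atg7 (-0.19, edgeR adjusted p = 0.0025), Atg5 (-0.14, 0.00488) and Map1lc3b (-0.11, 0.0325). The libraries of Atg7 and Map1lc3b overlapped between the groups. Gabarapl2 was at 0.20 and Atg12 at 0.12. The call of Gabarapl2 was lost without control replicate 2 (adjusted p = 0.0576) or thrombocytopenic replicate 1 (0.0675), and that of Atg12 without control replicate 1 (0.124), control replicate 3 (0.0769), thrombocytopenic replicate 1 (0.201) or thrombocytopenic replicate 3 (0.0721), and with DESeq2 (0.0776) or upper quartile scaling (0.0841).

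The 5 genes whose pattern over the 6 libraries came closest to that of the members' summed CPM were Tmed10, Arl8b, Inpp5k, Ctsb and Ly9, out of 7609 candidates with a mean of at least 10 CPM. Likeness was the root mean square difference of log2 CPM after each gene was centred on its own mean, and it ran from 0.012 for Tmed10 to 0.015 for Ly9. The sum itself differed by -0.18 on the log2 scale between the groups, and these 5 genes by -0.20 (Arl8b) to -0.17. This is a description of the libraries and was not tested.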

How the data were processed

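The authors deposited raw counts per gene, whole numbers in 1 file per library. The submitters' processing notes name Salmon 1.5.2, Subread 2.0.1 (featureCounts), STAR 2.7.9a and fastp 0.23.1. Their roles, build, annotation, strand use and treatment of multi-mapping reads were not given in the sources used here, so near copies and overlapping genes are uncertain. Libraries came from a stranded, oligo-dT based kit, per the labels' protocols. Groups and replicate numbers came from the labels.

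Counts were fitted on the whole table in R 4.3.3 with edgeR 4.0.16 (filterByExpr with a minimum count of 10 and a total of 15, TMM, robust quasi-likelihood test, group as the only term, two-sided, Benjamini-Hochberg adjustment, threshold 0.05). SE is the size of the log2 fold change over the root of the F statistic, and intervals are 95%. The fit was tested on simulated counts. Alternatives were other scalings and filters, DESeq2 1.42.0, limma-voom (limma 3.58.1), a minimum fold, a replicate block and leaving out each library. Members and lists were chosen with earlier results of these data known. Named are all members and, from each list, the 2 genes with the smallest p in each direction and those not called where 5 or fewer. Gm12250, F830016B08Rik, Irgc1, Gm12187, Ifng, Atg7, Atg5 and Map1lc3b were added after their values were seen. Marker lists are named by the most abundant gene and by genes at 0. Some genes that this rule names are not reported here. Sequences are from RefSeq (GRCm38.p6).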

Additional observations from a re-analysis of the deposited data

How the results depend on the processing

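Over 18 alternatives each, no member changed direction. Irgm2 was called in none of them (log2 fold change -0.05 to -0.02) and Iigp1 in all (-0.86 to -0.82). Against a minimum fold of 1.2 (edgeR's glmTreat) Iigp1 was the 1 member called, and Irgm1 (-0.19), Igtp (-0.13), Tgtp1 (-0.50), Tgtp2 (-0.21) and Ifi47 (-0.25) were not. That setting called 1141 genes lower and 576 higher in all. It left 4 of the other IRG genes lower, 6 of the GBP genes and 1 of the Mx and very large GTPase genes. Lower calls were also left for 3 genes of interferon gamma signalling, 1 of type I interferon signalling and 0 of the LC3 list. The higher calls left in these last 3 lists were 2, 1 and 0. By the test's construction changes under 1.2-fold cannot pass it. The change of Tgtp1 was larger than that, with an SE of 0.17, and did not pass (glmTreat adjusted p = 0.163).

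Tgtp1 also lost its call at a threshold of 0.01 (-0.50) and with DESeq2 (-0.48), and ran from -0.66 to -0.29 when a library was left out; its 216 and 268 counts limit it. The higher calls among type I interferon genes fell to 1 at a threshold of 0.01 and with upper quartile scaling, and were 1 to 2 with a library left out. For the LC3 list they fell to 1 at 0.01, with upper quartile scaling and with DESeq2, and were 0 to 2 with a library left out. The cause was not tested. Ifnar1 (-0.0027) and Irf9 (-0.0055) reversed with upper quartile scaling.

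Same-numbered libraries of the groups did not deviate together (correlations of -0.04, -0.12 and -0.03 across genes), so the numbers were not taken as pairs. With a replicate block 5402 genes were called in place of 5626, the higher LC3 calls were 1 in place of 2, and no call of a member changed.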

Other observations

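The tested genes within 0.5 Mb of each of the 3 IRG clusters, other than those on the IRG lists used here, were called in both directions. Among all tested genes 45.1% were called. Around the cluster of Iigp1, 5 of 9 were lower and 3 higher, with a median log2 fold change of -0.33. The share called there was above that of all tested genes. Around the cluster with Irgm1 the counts were 1 lower and 2 higher of 7 (median 0.07), and around that with Irgm2 they were 2 lower and 1 higher of 9 (median 0.04), both shares below that of all tested genes. Whether any neighbour is related to the family, such as Gm5970 and BC023105 near Iigp1, was not checked. The counts of neighbours may therefore include genes of the family itself. Olfr56, near the cluster with Irgm1, shares annotated exon bases with Ifi47 on the same strand. The neighbours were looked at after the values of the IRG genes were known, and no test was made.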
